A study of Macaca mulatta with 5 samples.

Results

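KRT8, KRT18, CLDN6 and EPCAM are genes of simple epithelium, the single-layered sheets that line the early embryo and many organs. They were followed as embryonic stem cells of the rhesus macaque passed through 5 culture stages on the way to serotonin neurons. The 4 genes were taken by symbol from the array's annotation, out of 14132 named genes, and 6 probe sets carry one of these symbols alone, out of 24969 with a single symbol. The starting point was ESC, undifferentiated cells of line 366.4 at passage 13 on a layer of mouse embryonic fibroblasts. EB were embryoid bodies of 6 to 8 days, and N1 were neurospheres kept for 7 to 9 days in a medium with a supplement also called N2. N2 were cells expanded with FGF4 for 7 to 9 days, and N3 were cells matured without FGF4 in growth-factor-reduced wells. All stages derive from this 1 line, and each was measured on 1 array, so no difference below has a replicate check, a standard error or a p-value.

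Keratins are the intermediate filaments of epithelial cells, and each filament pairs a type II with a type I chain. KRT8 is the type II and KRT18 the type I keratin of simple epithelium, and in many species they are the first keratins made by the embryo. CLDN6 is a claudin, a membrane protein that seals tight junctions, known from embryonic epithelia and pluripotent stem cells. EPCAM is a membrane glycoprotein that joins epithelial cells to each other and is also found on pluripotent stem cells. Neurons make neither keratin filaments nor tight junctions of this kind and use neurofilaments and related proteins instead.

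Signals are array intensities rescaled so that the mean of each array, with 2% trimmed from each end, is 500. A signal under 100 was treated as background, and a fold against such a signal is a lower bound, written as "at least". Of 42 negative control probe sets the brightest read 87.2 in ESC, and on the remaining arrays it read between 47.6 and 64.8. A fold of 2 was the size counted. The only spread available is technical, namely how far the log2 ratios from a gene's 2 brightest probe sets differ. It is given as the SD of that difference over genes divided by the square root of 2, which stands for a single probe set. The value was 0.753 in EB against ESC, 0.451 in N1 against EB, 0.541 in N2 against N1, 0.433 in N3 against N2 and 0.818 in N3 against ESC. The ratio of 3' to 5' signal of the actin control, a measure of RNA quality that is low for intact RNA, was 1.73 in ESC and 15.19 in EB, then 5.43 in N1 and 25.21 in N2, and 8.63 in N3. For the GAPDH control this ratio was 7.1 in N2 and between 1.69 and 2.78 on the other 4 arrays. For the EF1a control it was 1.88 in N2 and between 0.83 and 1.06 on the other 4 arrays. In bulk RNA such as this, fewer cells of a type and less RNA per cell cannot be told apart.

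The annotation of the keratin probe sets limits what can be read from them. KRT8 has 1 probe set of its own, whose gene identifier 700449 is the KRT8 entry of the RefSeq table. The 2 probe sets labelled KRT18 alone carry the identifier 719942, which is absent from that table, where KRT18 has the identifier 700569. That identifier belongs to another probe set, MmuSTS.4630.1.S1_at, which lists 11 gene entries, 2 of them named KRT18 and 9 other loci. Likewise MmugDNA.6510.1.S1_s_at lists KRT8 with 8 other loci. These 2 are called the shared probe sets here. They were read beside the members, and their signal cannot be assigned to a single gene. CLDN6 has 2 probe sets and EPCAM has 1, all with identifiers that match the table.

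**Figure D1:**
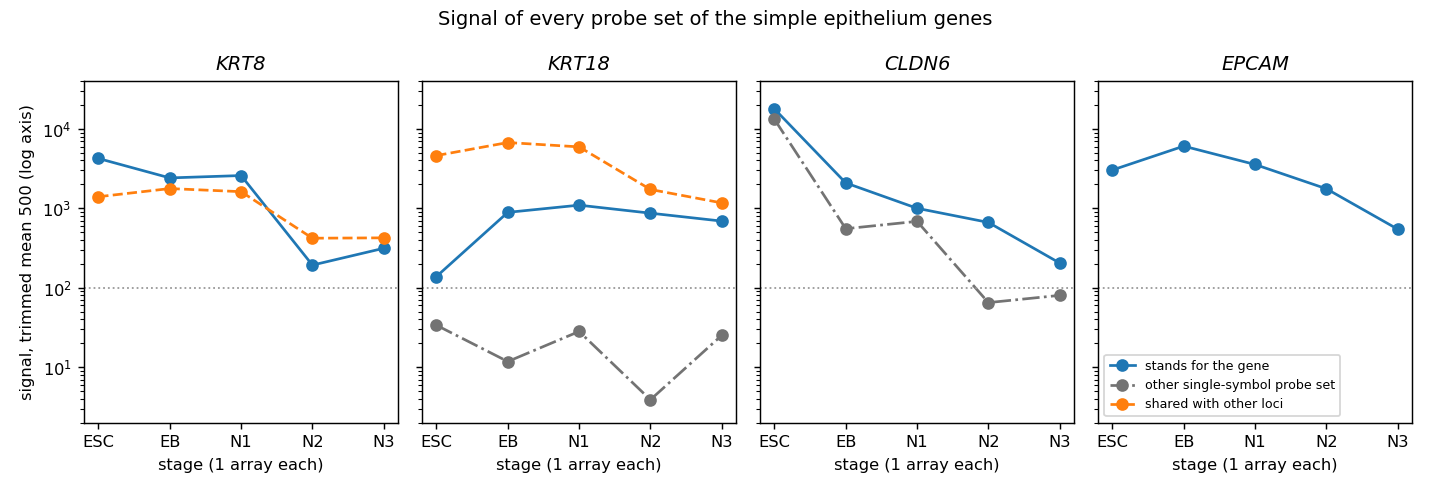
Signal of every probe set of the 4 genes (log axis, array intensity rescaled to a trimmed mean of 500) at the 5 stages, 1 array each, with the background limit of 100 dotted. Solid lines are the probe set that stands for the gene, dash-dotted lines other probe sets with the same single symbol and dashed lines the shared probe sets. KRT8, CLDN6 and EPCAM end below their ESC signal, whereas the KRT18 probe set with a single symbol is lowest in ESC at 139 and the shared one is lowest in N3 at 1171.

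KRT8 was high in the first 3 stages and low in the last 2. Its signal was 4238 in ESC and 2414 in EB, then 2586 in N1 and 193 in N2, and 314 in N3. The break lay between N1 and N2, where it was 13.4-fold lower in N2 (log2 ratio -3.74), the lowest ratio but 3 among 10552 genes measured in that comparison. EB and N1 differed by less than the probe set spread (log2 ratio 0.10), and N3 lay 1.63-fold above N2. N3 remained 13.5-fold below ESC and 8.23-fold below N1.

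The shared KRT8 probe set gave the same break at a smaller size. It had a signal of 1400.5 in ESC, 1773 in EB, then 1621 in N1 and 421 in N2, and 425 in N3, and was 3.85-fold lower in N2 than in N1. Unlike the probe set of KRT8 alone, it was higher in EB than in ESC, by 1.27-fold, which is less than the probe set spread of that comparison. N2 was also the array with the largest 3' to 5' ratios, 25.21 for actin against 5.43 in N1 and 7.1 for GAPDH against 1.69 in N1, and their part in the KRT8 difference was not tested. In N3, where KRT8 was 8.23-fold below N1, these ratios were 8.63 and 2.1, also above those of N1. In EB, where KRT8 was 1.07-fold below N1, they were 15.19 and 2.78, above those of both N1 and N3. The EF1a ratio in EB, 0.96, lay between 0.83 in N1 and 1.06 in N3.

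KRT18, read from its brighter single-symbol probe set MmugDNA.12950.1.S1_at, ran the other way. Its signal was 139 in ESC against 889.9 in EB and 1096.5 in N1, then 869 in N2 and 691 in N3. ESC stood apart as the low stage, close to the background limit, and the other 4 lay within 1.59-fold of each other. Along their order from N1 to EB, N2 and N3, no neighbours differed by more than the probe set spread. The ends of that order did, with a log2 ratio of -0.67 for N3 against N1 beside a spread of 0.50. The fold was 6.42 higher in EB than in ESC and 4.98 higher in N3 than in ESC. The other single-symbol probe set stayed below background on all 5 arrays, between 3.9 and 33.8, and gives no ratio.

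The shared KRT18 probe set, the one that lists the RefSeq KRT18 entry, contradicted this course. It read 4615 in ESC and 6731 in EB, then 5936 in N1, 1728 in N2 and 1171 in N3. On it, N3 was 3.94-fold below ESC (log2 ratio -1.98, where the single-symbol probe set gave 2.32), and N2 was 3.44-fold below N1. Its first 3 stages did not differ beyond the probe set spread. Across the 5 arrays its centred log2 profile differed from that of the shared KRT8 probe set by a root mean square of 0.20, and from that of the single-symbol KRT18 probe set by 1.55. The direction of KRT18 therefore depends on which probe set is read, and the values labelled KRT18 alone are given below with this limit.

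CLDN6 was highest in ESC and lower at every later stage on both probe sets. On MmugDNA.34153.1.S1_at the signal was 17809.5 in ESC, 2089 in EB, then 1001 in N1 and 665 in N2, and 205 in N3. Each step down exceeded the probe set spread of its comparison, the smallest being N2 against N1 at a log2 ratio of -0.59. N3 was 86.9-fold below ESC, the second lowest ratio of 11232 genes measured, with only the pluripotency factor POU5F1 lower at a bound of at least 286-fold. On MmuSTS.3424.1.S1_at the signal was 13191 in ESC and 554 in EB, then 686 in N1, 65.1 in N2 and 80.3 in N3. This probe set was 23.8-fold lower in EB than in ESC, where the first gave 8.53-fold, and at least 132-fold lower in N3 than in ESC.

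The 2 CLDN6 probe sets disagreed in the middle of the series. N1 was 2.09-fold below EB on the brighter probe set and 1.24-fold above EB on the other. N2 was 1.51-fold below N1 on the brighter and at least 6.86-fold below N1 on the other. On both, ESC was the high stage, and N3 was 205 on one and below background on the other. ESC was also the stage grown on mouse fibroblasts. Among the fibroblast and feeder-type markers, THY1 (628 in EB, against 5443 in ESC) and TAGLN (4659.6 in EB, against 35825 in ESC) were highest in ESC. COL1A1 was instead highest in N3, at 20539, against 4635 in ESC. LUM and DCN were below background in ESC at 46.0 and 13.8 on their brightest probe sets, though another DCN probe set read 289 there. The 7 fibroblast and feeder-type markers with a probe set summed to 49807 in ESC and to between 34657 and 57183 later, with 5 of them above background in ESC and 7 later. The part of feeder RNA in the ESC signal of CLDN6 was not tested.

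EPCAM peaked in EB and was lowest in N3. Its signal was 3036 in ESC and 6065 in EB, then 3563 in N1, 1763 in N2 and 547 in N3. EB was 1.997-fold above ESC, just short of the counted size, and each stage after EB was lower than the one before. N1 was 1.70-fold below EB, N2 was 2.02-fold below N1, just past the counted size, and N3 was 3.22-fold below N2. N3 was 11.1-fold below EB and 5.55-fold below ESC. In the order of levels, N1 and ESC did not differ beyond the probe set spread, nor did ESC and N2.

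**Figure D2:**
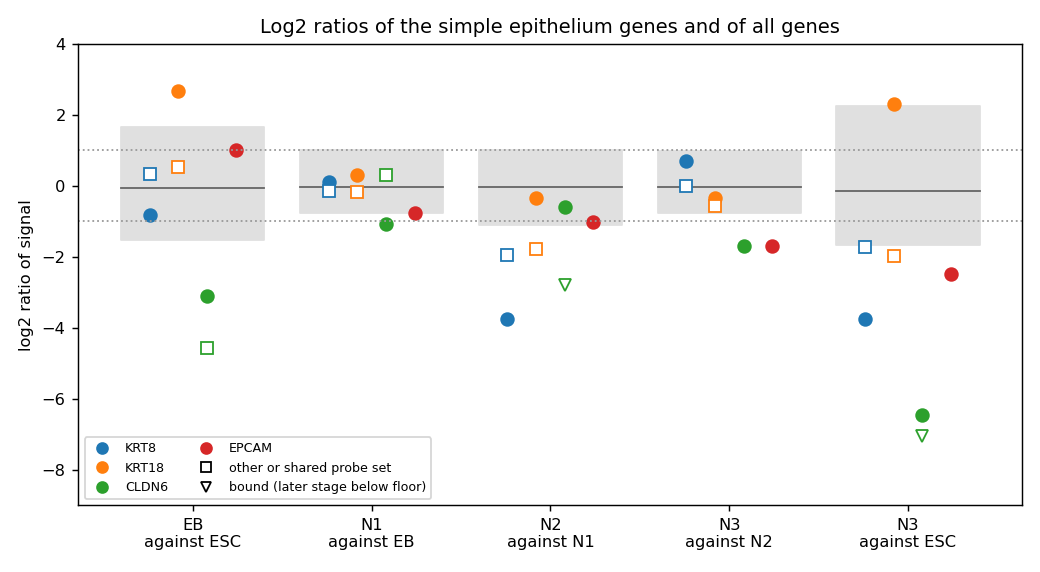
Log2 ratio of signal in each comparison for the 4 genes (filled circles), their other or shared probe sets (open squares) and bounds (open triangles, later stage below background). Grey boxes span percentiles 5 to 95 of all measured genes with their median as a line, and dotted lines mark 2-fold. CLDN6 lies below the box for EB, N1 and N3 each against the stage before it, KRT8 far below it for N2 against N1 at -3.74, and KRT18 on its single-symbol probe set above it for EB against ESC at 2.68. EPCAM also lies below it for N3 against N2 at -1.69. For N3 against ESC, KRT8, CLDN6 and EPCAM lie below the box and single-symbol KRT18 just above it at 2.32.

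Between adjacent stages the genes did not move as a group, and over the whole course 3 of the 4 ended lower, or 4 of the 4 where the shared probe sets stand for the keratins. In EB against ESC, 1 was at least 2-fold higher (KRT18, where 12.1% of measured genes were) and 1 lower (CLDN6, where 11.8% were), with a median log2 ratio of 0.09 and a mean of -0.06 beside a median of -0.06 over all genes. In N1 against EB, 1 was lower, CLDN6 (2.2% of genes), and 0 higher (5.15%). In N2 against N1, KRT8 and EPCAM were lower (6.53% of genes) and 0 higher (5.06%), with a median of -0.80 over the 4 and -0.04 over all genes. In N3 against N2, CLDN6 and EPCAM were lower (2.19% of genes) by 3.24-fold and 3.22-fold and 0 higher (4.78%). Counted in either direction, 2 of the 4 passed 2-fold in EB against ESC, where 23.9% of genes did, 1 in N1 against EB (7.34%), 2 in N2 against N1 (11.6%) and 2 in N3 against N2 (6.97%).

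For N3 against ESC, KRT8, CLDN6 and EPCAM were at least 2-fold lower, as were 16.4% of measured genes, and KRT18 on its single-symbol probe set was higher, as were 17.2%. All 4 thus differed by 2-fold or more, where 33.7% of genes did. With the shared probe sets for the keratins, 4 were lower and 0 higher. The same 16.4% and 17.2% are the shares beside which the list counts for N3 against ESC below are read. The median log2 ratio of the 4 was -3.11, beside -0.13 over all genes. Each adjacent comparison shares an array with the next. EB against ESC and N3 against N2 also share one with N3 against ESC, so comparisons with an array in common are not independent of each other. When each gene's centred log2 profile over the 5 arrays was set against the others, KRT8 differed from EPCAM by a root mean square of 1.22 and from CLDN6 by 1.36. CLDN6 differed from EPCAM by 1.65 and from KRT18 by 3.06 on its single-symbol probe set or 1.66 on the shared one. The shared keratin probe sets lay closer to EPCAM, at 0.41 for the one listing KRT18 and 0.59 for the one listing KRT8.

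Genes with the most similar course were ranked by the same root mean square difference of the centred log2 profiles, over 5 arrays and 6079 named genes that varied by at least 2-fold. For KRT8 the closest were ZWILCH, a mitotic checkpoint protein (0.57), the desmosomal cadherin DSG2 (0.65), the lipid carrier APOE (0.76), the actin-bundling protein LCP1 (0.77) and LOC707041 (0.83). DSG2, which joins epithelial cells through desmosomes, read 1616 in ESC, 1549 in EB, then 1186 in N1 and 267 in N2, and 253 in N3. For EPCAM they were GPAT3, an enzyme of glycerolipid synthesis (0.24), the WNT pathway transcription factor TCF7 (0.24), the vesicle fusion protein VAMP8 (0.26), C1H1orf115 (0.28) and SLC35G1 (0.30). For CLDN6 they were the retinoic acid-degrading enzyme CYP26A1 (0.52), the metallothionein MT2A (0.61), the cell death gene PMAIP1 (0.64), the WNT receptor FZD5 (0.67) and ARHGAP36 (0.77). For the single-symbol KRT18 probe set they were the growth factor carrier IGFBP3, DYNLRB2, FLRT2 and SAYSD1 (all 0.16) and LOC715347 (0.17). The shared KRT18 probe set had another set of closest genes, led by the membrane protein SMAGP (0.20) and VAMP8 (0.24).

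The other simple keratins did not copy KRT8. KRT19, a type I keratin of simple epithelia, was a large EB signal, at 1954 in ESC, 17852 in EB and 7979 in N1, then 2889 in N2 and 1118 in N3. It was 9.14-fold higher in EB than in ESC and lower at each later step, by 2.24-fold, 2.76-fold and 2.58-fold. Its other 2 probe sets also peaked in EB, at 6219 and 5195, and read 241 and 115 in N3, against 642 and 1248 in ESC. Between N1 and N2 these 2 fell further than the brightest, from 2749 to 555 and from 2490 to 215. On both, N3 was more than 2-fold below ESC, whereas the brightest, used for the count below, was 1.75-fold below. KRT7, a type II keratin of ducts and trophoblast, was 352.5 in ESC and 99.6, 44.9, 18.6 and 42.1 in EB, N1, N2 and N3, so that it was above background in ESC alone. KRT20 reached 144 in ESC and lay below background later, and KRT23 and KRT80 stayed below background on all arrays. Of the 3 simple keratins measured in N3 against ESC, 1 was lower (KRT7, at least 3.52-fold) and 0 higher (median -0.81).

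Keratins of stratified epithelium and the filaments of other cell types followed other courses. Among 14 stratified and basal keratins, 8 have a probe set and 5 were measured in N3 against ESC, with 1 higher (KRT3, at least 4.48-fold) and 1 lower (KRT16, at least 2.34-fold), and a median of 0.01. Neither held on the other probe sets of these genes, since another KRT16 probe set read 333 in N3 and 90.4 in ESC, and another KRT3 probe set 51.8 in N3 and 121 in ESC. KRT10, a keratin of the upper epidermis, was between 5404 and 6897 on all 5 arrays. KRT5, KRT14, KRT15 and KRT17 were not analysed here. Of 7 other intermediate filament genes measured, 2 were higher in N3 than in ESC and 0 lower (median 0.18). PRPH, the filament protein peripherin of peripheral and some brainstem neurons, read 559 in ESC and 2528 in EB, then 2591 in N1, 5238 in N2 and 5403 in N3. VIM, the vimentin of mesenchymal and neural progenitor cells, was 35324 in ESC, 18920.4 in EB, then 22738 in N1 and 34102 in N2, and 39954 in N3, so it was lowest where KRT19 and EPCAM were highest. SYNM, another filament protein, was 2.25-fold higher in N3 than in ESC.

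**Figure D3:**
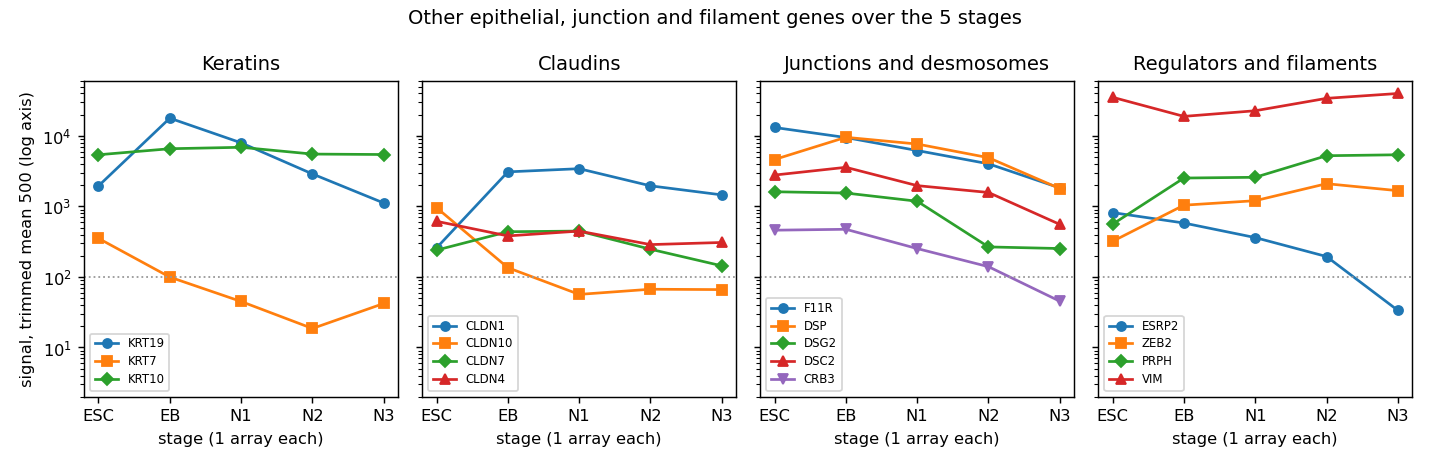
Signal of other keratin, claudin, junction, regulator and filament genes (log axis, array intensity rescaled to a trimmed mean of 500) at the 5 stages, 1 array each, with the background limit of 100 dotted. KRT19 peaks in EB at 17852, CLDN1 is low in ESC at 258 and F11R, DSC2 and ESRP2 are lowest in N3, where ESRP2 is below background.

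The other claudins did not follow CLDN6 as a list. Of 20 listed, 16 have a probe set and 11 were measured in N3 against ESC, with 2 lower, 1 higher and a median of -0.46. CLDN10 had the largest difference of these, at 960.6 in ESC, 135 in EB and 56.6, 67.0 and 66.2 in N1, N2 and N3, so N3 was at least 9.61-fold below ESC. CLDN3 was 127 in N3 and 313.5 in ESC, a fold of 2.47 lower. CLDN1, a claudin of many epithelia, went against CLDN6, with 258 in ESC, 3092 in EB and 3430.5 in N1, then 1960.2 in N2 and 1458 in N3. Its other probe set read 166 in ESC and 333 in EB, then 352 in N1, 161 in N2 and 106 in N3, so the 5.65-fold higher N3 signal of the first was not seen on it. CLDN7, which binds EPCAM in epithelial membranes, was 240.1 in ESC, 438 in EB, then 447.5 in N1 and 247 in N2, and 144 in N3. CLDN7 and EPCAM were thus both lowest in N3, with N3 1.67-fold below ESC for CLDN7 and 5.55-fold for EPCAM.

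Tight junction and polarity genes were lower in N3 than in ESC for 6 of 9 measured members and higher for 0, where 16.4% of all measured genes were lower, and their median log2 ratio was -1.49. F11R, the junctional adhesion molecule A, read 13176.5 in ESC, 9486 in EB and 6208 in N1, then 4023 in N2 and 1830.0 in N3. N3 was 7.20-fold below ESC, and the 2 other F11R probe sets above background in ESC were lower in N3 too, at 150.5 and 129, against 1221 and 1133 in ESC. CRB3, a polarity protein of the apical membrane, was 45.3 in N3 and 460.5 in ESC, at least 4.61-fold lower. OCLN, the tight junction protein occludin, was 344 in ESC and below background from EB on. CXADR was 5.37-fold lower, the scaffold CGN 2.81-fold and the scaffold TJP1 2.33-fold. The lower CXADR signal was not seen on its other probe set, which read 75.5 in ESC, below background, and 139 in N3. CGNL1, related to CGN, instead peaked in EB at 1300.1, against 368.5 in ESC. Between adjacent stages the list was mixed. In EB against ESC, 2 of 9 were lower (11.8% of all genes) and 1 higher (12.1%). In N3 against N2, 1 of 8 was lower (2.19%) and 1 higher (4.78%).

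Desmosome and adherens junction genes had 3 of 12 measured members lower in N3 than in ESC and 0 higher, with a median of -0.14 that is near that of all genes. The 3 were the desmosomal genes DSG2 (6.38-fold), DSC2 (5.01-fold) and DSP (2.58-fold). DSP, the plakin that anchors keratin filaments to desmosomes, read 4628 in ESC and 9559 in EB, then 7674 in N1, 4913 in N2 and 1792 in N3. Its peak in EB and its low in N3 match the order of EPCAM at both ends. CDH3, the P-cadherin gene, was 4.29-fold higher in EB (6291) than in ESC (1466.5) and 2009.8 in N3. Its other probe set was below the counted size in that comparison, at 2316 in EB and 1282 in ESC. CDH1, the E-cadherin gene that defines adherens junctions of epithelium, was below background on all 5 arrays, between 2.0 and 48.9 in the later stages and at 69.6 in ESC, on its single probe set.

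Genes that act with EPCAM or on it were lower in N3 than in ESC for 5 of 9 measured members and higher for 0 (median -1.01), where 16.4% of all measured genes were lower. FHL2, which in human cells binds the released inner part of EPCAM, was 3.88-fold lower, the tetraspanin CD9 was lower by more than 2-fold (log2 ratio -1.59), the protease inhibitor SPINT2 2.49-fold lower and the protease ADAM10 2.28-fold lower. CD44, the fifth, passed narrowly at a bound of at least 2.01-fold. In EB against ESC, 4 of 8 measured members were lower (ST14, CD9, FHL2 and ADAM10) and 0 higher, where 11.8% of all genes were lower and 12.1% higher, at the stage where EPCAM itself was at its highest. ST14 is counted by its brightest probe set. Its other probe sets above background in ESC were lower by less than 2-fold, at 302 and 249 in EB, against 538 and 360 in ESC. CD9 read 4958.5 in ESC, 777 in EB, then 783 in N1 and 993 in N2, and 1651.5 in N3. SPINT2 read 4098 in ESC, 4057.5 in EB and 2992 in N1, then 1819 in N2 and 1645 in N3.

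Transcription and splicing factors of epithelia were split, with 4 of 12 measured members lower in N3 than in ESC and 3 higher (median 0.16). ESRP2, which sets epithelial splicing, was 818.5 in ESC and 582 in EB, then 362 in N1, 195 in N2 and 33.6 in N3, at least 8.18-fold lower in N3. Also lower were TFAP2C, an early embryonic factor (10.9-fold), OVOL2 (at least 5.42-fold) and GRHL3 (at least 3.47-fold). TFAP2A, a factor of surface ectoderm and neural crest, was 44.6 in ESC and 1351, 2165, 5526 and 6271 in EB, N1, N2 and N3. FOXA1 and CDX2, factors of endoderm and of gut or trophoblast, were highest in EB, at 4455.5 and 3138, and then lower at each later stage, down to 523 and 191 in N3. KLF4 was 4.19-fold higher in N3 than in ESC on one probe set, while its other probe set was 81.6 in N3 and 126 in ESC.

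Genes of the mesenchymal state did not move as a list. Of 6 measured, 1 was higher in N3 than in ESC and 1 lower, with a median of 0.39. ZEB2, a repressor of epithelial genes that is also active in neural cells, was 319.9 in ESC, 1042 in EB, then 1206 in N1 and 2102 in N2, and 1673 in N3, thus 5.23-fold higher in N3. SNAI1, another such repressor, was 2.06-fold lower in N3 at 109, against 226 in ESC. ZEB1 dipped in EB to 124, against 339 in ESC, and was 484 in N1.

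Apical membrane and epithelial trafficking genes were lower in N3 than in ESC for 6 of 10 measured members and higher for 1 (median -1.13). The membrane protease PRSS8 read 882 in ESC, 369 in EB and 232 in N1, then 109 in N2 and 112 in N3, 7.86-fold lower in N3. TMPRSS2 was at least 3.82-fold lower, the small GTPase gene RAB25 2.35-fold and the membrane linker EZR 2.19-fold. In N2 against N1, where KRT8 and EPCAM were lower, 4 of 9 measured members of this list were lower (VIL1, EZR, RAB25 and PRSS8) and 0 higher, where 6.53% of all genes were lower and 5.06% higher. VIL1, which bundles actin in microvilli, is counted here by its brightest probe set, and its probe sets ran opposite ways between ESC and EB. The 1 gene higher in N3 than in ESC was LCN2, a secreted protein that binds iron carriers, at 1443 in N3 and 124.5 in ESC, while its 3 other probe sets read 172 to 274 in N3 and 40.3 to 115 in ESC.

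**Figure D4:**
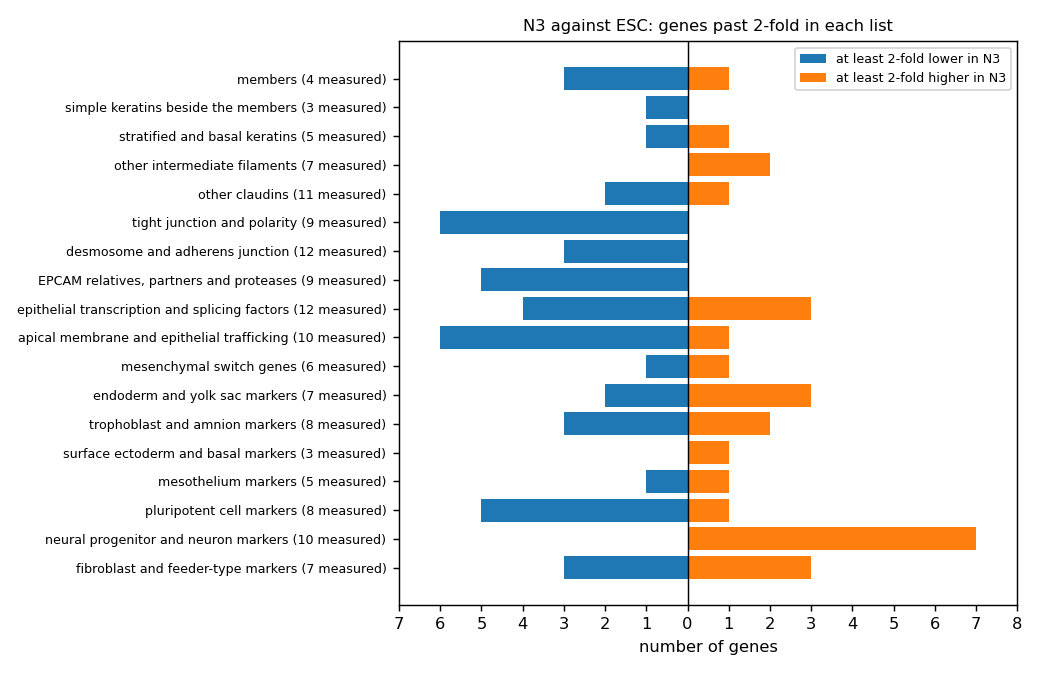
Number of genes at least 2-fold lower (bars to the left) and higher (bars to the right) in N3 than in ESC for the 4 genes (members) and for each gene list, with the number measured after each name. Tight junction genes had 6 lower and 0 higher of 9, and neural genes 0 lower and 7 higher of 10.

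Markers of other cell types moved on the same arrays. Endoderm and yolk sac markers, whose cells carry keratins and EPCAM, had 5 of 8 measured members higher in EB than in ESC (12.1% of all genes). In N2 against N1, 5 of 8 of these markers were lower (6.53% of all genes). The summed signal of the list was 2569 in ESC and 55372 in EB, then 39356 in N1, 12324 in N2 and 2716 in N3. EPCAM and KRT19 likewise peaked in EB and were low in N3, while KRT8 and CLDN6 were high in ESC, where this sum was lowest. Of its 8 markers 5 were above background in ESC, all 8 in EB and N1, 7 in N2 and 6 in N3. Within that list FGB, the fibrinogen beta chain, was 3.5 in ESC, 26301 in EB, then 15461 in N1 and 3222 in N2, and 71.2 in N3, and APOA1 was 20596 in EB and 751 in ESC. These 2 genes made up most of the EB sum. AFP, a fetal plasma protein made by yolk sac endoderm, went the other way, at 991 in ESC and 601 in EB, then 484 in N1 and 410.3 in N2, and 437 in N3. For trophoblast and amnion markers the summed signal went from 6192 in ESC to 19610 in EB, and then to 10141, 9929 and 8482. Of these markers 4 of 8 measured were higher in EB than in ESC and 2 lower (median 2.20). The higher ones were HAND1 (8193 in EB, against 239.7 in ESC), GATA3 (3911.5, against 347.5), CDX2 and TFAP2A. For TFAP2A this held on its brightest probe set only, and the next read 255 in EB, against 195 in ESC. TFAP2C and KRT7 were lower. The trophoblast factor GCM1 was below background on all arrays, and ELF5 was above it in N1 alone. In N3 against ESC, endoderm markers were 3 higher and 2 lower of 7 (median -0.15, mean 0.21) and trophoblast markers 2 higher and 3 lower of 8 (median 0.11). Their part in the course of the epithelial genes was not tested.

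Pluripotent cell markers, the list of the cells in which CLDN6 was highest, had 5 of 8 measured members lower in N3 than in ESC and 1 higher (median -2.18). Their summed signal was 80386 in ESC and between 14863 and 20726 later. In N2 and N3 most of that sum was SOX2, at 13336 and 14978, a factor also listed with the neural genes. The 1 higher was the pluripotency factor NANOG, 2.06-fold, at 2155 in N3 and 1047 in ESC. POU5F1 was 28621 in ESC and 905.5 in EB, then 249 in N1, 80.3 in N2 and 14.7 in N3. LIN28B, an RNA-binding protein of early embryonic cells, was 6987 in ESC, 9472 in EB, then 5386 in N1 and 3963 in N2, and 1400.1 in N3, with its highest signal in EB and its lowest in N3, as for EPCAM, but its other probe set was highest in ESC at 411. Neural progenitor and neuron markers moved the opposite way, with 7 of 10 higher in N3 than in ESC and 0 lower (median 3.14). DCX, a microtubule protein of young neurons, was 186 in ESC and 535 in EB, then 2222 in N1 and 6488 in N2, and 10607 in N3. Its other probe set showed no such course, at 101 in ESC and below background later. The remaining lists were small or split. Surface ectoderm and basal markers had 1 of 3 higher (TFAP2A) and 0 lower in N3 than in ESC. Mesothelium markers had 1 higher and 1 lower of 5 (median -0.33), and fibroblast and feeder-type markers 3 higher and 3 lower of 7 (median 0.36). WT1, a factor of mesothelium, was 73.7 in ESC and highest in N1 at 1137, and MSLN, which defines that cell type, reached 125 in ESC and was below background later.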

How the data were processed

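The 5 samples, 1 Affymetrix rhesus array per stage, were grouped by the labels' stage. The values deposited by the authors are linear array intensities, 1 per probe set, made with GCOS 1.0 per the submitters' processing notes; how GCOS summarised the probes, and which were called present, is not given in the sources used here. The trimmed mean of the deposited intensities was 199.1 to 199.3 on every array, so they were already scaled. Here each array was multiplied by 2.508 to 2.511 to reach a trimmed mean of 500, values under 100 were set to 100 and log2 was taken (Python 3.11.15, pandas 2.3.3). The number of arrays limits the precision.

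Of 52865 probe sets, 158 were controls, 24969 had 1 symbol in the platform annotation, 361 had several and 27535 were not listed. Identifiers were checked against a RefSeq gene table (assembly T2T-MMU8v2.0). A gene is represented by whichever of its single-symbol probe sets had the highest mean on the log2 scale, and counts as measured where at least 1 of the 2 arrays reached 100. The named genes are the 4 members, the 5 genes nearest to each in profile among those with a log2 range of at least 1, and up to 6 genes per list with the largest range among those reaching 200; others are given where a count turns on them, chosen after their values were seen. The 17 other lists hold 190 genes, 143 with a probe set, and 12 genes stand in more than 1 list. The members and lists were chosen with earlier results of these data known. With 1 array a stage no test was run. Alternatives were 4 other scalings, 3 other floors, the per-gene median over probe sets, omission of probe sets that may bind related transcripts, a 4-fold size and, added after the data were seen, the shared probe sets. The calculations were tested on simulated data.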

Additional observations from a re-analysis of the deposited data

How the results depend on the processing

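No paired analysis was possible because each stage has 1 array. Of 11 member ratios past 2-fold, all stayed past 2-fold in the same direction with a floor of 50 or 200, no floor, quantile normalisation, values as deposited and after omission of probe sets that may bind related transcripts; 10 did so with equal medians and with hybridisation controls, and 9 with the per-gene median over probe sets and with the shared probe sets. The cause of each change below was not tested unless the alternative itself shows it.

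With values as deposited the floor acts on a smaller scale, and KRT18 had log2 ratios of 1.83 for EB against ESC and 1.46 for N3 against ESC, and a range over the stages of 2.13. With equal medians, 2 members were higher in EB against ESC, 2 lower in N1 against EB and 1 lower in N2 against N1, while the median of all genes moved to 0.41 in EB against ESC and to -0.37 in N1 against EB. Scaled to hybridisation controls, which moved the median of all genes to 0.41 in N1 against EB and -0.57 in N2 against N1, the ratios for N1 against EB were 0.56 for KRT8, 0.77 for KRT18, -0.60 for CLDN6 and -0.30 for EPCAM, with 0 members lower. Those for N2 against N1 were -4.32, -0.91, -1.17 and -1.59 for the same genes, and 2 members were higher in EB against ESC.

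With the per-gene median over probe sets, KRT18 had 1.34 for EB against ESC, 1.16 for N3 against ESC and a range of 1.49, since its other probe set lies at the floor. CLDN6 then had -0.38 for N1 against EB, -1.68 for N2 against N1 and -0.85 for N3 against N2, with 0 and 1 members lower in N1 against EB and in N3 against N2. At 4-fold, 0 members were lower in N1 against EB, 1 in N2 against N1 and 0 in N3 against N2. On the shared probe sets, KRT18 reversed to -1.98 for N3 against ESC and had 0.54 for EB against ESC, -0.18 for N1 against EB and -1.78 for N2 against N1. KRT8 then had 0.34 for EB against ESC, -1.95 for N2 against N1, 0.01 for N3 against N2, -1.72 for N3 against ESC and a range of 2.08, and 0 members were higher in EB or in N3 against ESC, with 4 lower in N3. Folds against low signals are the least certain, as for KRT18 in ESC at 139, where the highest negative control was 87.2.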

Other observations

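KRT8 and KRT18 are neighbouring protein-coding genes in the RefSeq table, and CLDN6 lies beside CLDN9, another claudin. The genes next to the members, taken by position, did not share one course. CLDN9 was 116 in ESC and 72.7 in EB, then 51.7 in N1, 91.1 in N2 and 116 in N3, never far above background, where CLDN6 began at 17809.5. TNFRSF12A, a receptor gene on the other side of CLDN6, was also highest in ESC, at 5062, and read 224 in EB, then 711 in N1 and 429 in N2, and 741 in N3. KRT78 and KRT79, keratin genes beside KRT8, stayed below background on all 5 arrays.

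VIL1, the actin-bundling protein of intestinal microvilli, gave opposite courses on different probe sets. Its brightest probe set read 3475 in ESC, 424 in EB, then 1048 in N1 and 209 in N2, and 741 in N3. Another read 121 in ESC, 932 in EB and 689.5 in N1, then 368 in N2 and 159 in N3, a course with its peak in EB like those of KRT19 and EPCAM. EZR had a similar split, with its brightest probe set at 7606 in EB and 5090.0 in ESC and its other 3 between 335 and 1305 in EB and between 2203 and 3862 in ESC.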
